A study of Mus musculus with 25 samples.

Results

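The genes described here are 10 vascular growth factors and receptors of the mouse, taken by name out of the 24984 genes of the count table. They are the VEGF ligands Vegfa, Vegfb, Vegfc and Pgf, the VEGF receptors Flt1, Kdr and Flt4, the angiopoietins Angpt1 and Angpt2, and the angiopoietin receptor Tek, and all 10 were found in the table. RNA sequencing measured them in 25 libraries of 7 groups. The first 3 groups, of 3 cultures each, came from BMEL cells, a bipotential mouse embryonic liver line of C57B/6_C3H origin that grows on collagen and can take a hepatocyte or a bile duct fate. BMEL WT cells carried an empty vector, and RasLOW and RasHIGH cells expressed a low or a high level of the HRasG12V oncogene from a lentiviral vector that also encodes a fluorescent protein. The other 4 groups came from the liver tumour and the peritoneal tumour of each of 4 athymic nude mice, a host that lacks T cells and keeps natural killer and myeloid cells, after BMEL cells had been injected into the liver. Fluorescent tumour cells and non-fluorescent stromal cells were sorted from each tumour, which gave 4 libraries each of liver tumour cells, peritoneal tumour cells, liver stroma and peritoneal stroma. The sample labels do not state which Ras population had been injected, and the stroma holds every cell type without the fluorescent marker. Levels are given in CPM, a gene's count divided by the library total and scaled to a common total, with SDs over cultures or mice.

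VEGF ligands act on receptor tyrosine kinases that are best known from endothelial cells: Kdr carries most of the signal for growth and permeability, Flt1 binds Vegfa, Vegfb and Pgf tightly and also exists in soluble forms, and Flt4 serves Vegfc in lymphatic vessels and in liver sinusoids. Angpt1, made mainly by cells around the vessel, activates Tek and steadies the endothelium, whereas Angpt2 is released by endothelial cells and can act against it. In liver, sinusoidal endothelial cells carry these receptors, and liver tumours draw much of their supply from newly formed arterial vessels.

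Flt1 and Kdr are encoded on the same chromosome and serve the same ligand, yet their levels parted in the tumour cells, while Flt1 and Pgf were high in the same libraries. Vegfa was high there too and correlated more closely with Flt1 (0.952) than Pgf did (0.896), and its window is not shown. The 250 bases before the transcription start of Flt1, Pgf and Kdr are shown, 5′ to 3′, from RefSeq (GRCm38.p6), each with 1 exact match on the minus strand of the mm9 genome that the study used. Capitals mark a cyclic AMP response element (TGACGTCA), a TATA box (TATAAA), a hypoxia-response core (ACGTG) or a GC box (GGGCGG), each searched on both strands.
Flt1, chr5:148537588-148537837: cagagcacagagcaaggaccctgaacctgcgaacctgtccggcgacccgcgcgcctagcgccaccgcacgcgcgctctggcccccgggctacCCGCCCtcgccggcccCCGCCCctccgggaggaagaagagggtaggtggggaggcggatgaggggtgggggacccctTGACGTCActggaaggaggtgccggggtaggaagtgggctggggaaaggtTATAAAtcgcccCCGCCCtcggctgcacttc
Pgf, chr12:86518264-86518513: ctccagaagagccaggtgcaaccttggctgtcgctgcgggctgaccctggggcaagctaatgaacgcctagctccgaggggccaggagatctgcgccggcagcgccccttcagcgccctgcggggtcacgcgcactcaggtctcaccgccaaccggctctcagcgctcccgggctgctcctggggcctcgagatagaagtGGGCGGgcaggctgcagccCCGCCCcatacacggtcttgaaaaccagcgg
Kdr, chr5:76374481-76374730: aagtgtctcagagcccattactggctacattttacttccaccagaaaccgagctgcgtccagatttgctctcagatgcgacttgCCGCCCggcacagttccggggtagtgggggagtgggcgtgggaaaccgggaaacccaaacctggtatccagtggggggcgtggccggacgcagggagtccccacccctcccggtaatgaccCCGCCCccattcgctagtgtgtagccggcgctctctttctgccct
The Flt1 window held 1 cyclic AMP response element, 81 to 74 bases before the start, and 1 TATA box, 31 to 26 bases before it, and neither was in the windows of Pgf and Kdr. All 3 windows held GC boxes (3 in Flt1, 2 in Pgf and 2 in Kdr), and none held ACGTG. Only this form of the hypoxia-response core was searched and marked. The form GCGTG, or its complement CACGC, can be read in all 3 windows as printed. Its share over all promoter windows was not counted. Of 32851 mouse promoter windows of the same length, 1.55% held the cyclic AMP response element, 12.4% the TATA box, 16.6% ACGTG and 32.7% the GC box. These matches describe the letters of the windows, and binding was not measured.

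Library totals lay between 20818989 and 51241336 counts, and 3 counts, the least taken as detected, stood for 0.0585 to 0.144 CPM. Mouse Hras had 70.7 ± 15.8 CPM in RasHIGH and 87.4 ± 7.17 CPM in BMEL WT cultures (SD, n = 3 each), and this mouse gene does not measure a vector-borne copy. The sorted fractions were compared with marker genes of other cell types. The summed CPM of 6 epithelial markers ran from 8109 to 11444 in tumour cell libraries, and in stroma it amounted to 13.9 to 15.7% of the tumour cells of the same mouse in the liver and 6.38 to 10.4% in the peritoneum. Summed leukocyte markers of tumour cells stood at 0.511 to 4.00% of the stromal level across both sites. Of 11 endothelial markers, 10 had median levels in liver tumour cells of 0.373 to 1.91% of the stroma and in peritoneal tumour cells of 1.79 to 6.29%, and the exception was Cdh5 (VE-cadherin), at 62.4 and 113%. The peritoneal tumour cells of mouse 1 stood apart, with 9.20 to 16.3% of the stromal level for those 10 markers, and results that rest on this library are given with and without it.

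Against the stroma of the same tumours, liver tumour cells were higher in 5 genes (all 4 VEGF ligands and Flt1) and lower in the other 5 (adjusted p under 0.05 by edgeR's quasi-likelihood test), in a comparison in which 77.8% of all genes tested passed, 38.4% as higher and 39.4% as lower. In the peritoneum the same 5 genes were higher and 4 were lower, with 76.6% of all genes passing, 39.5% as higher and 37.1% as lower. At both sites the lower genes include Angpt1 and Tek, whose counts in tumour cells were too low to test between sites. These genes entered the tests against stroma through the stroma libraries alone, so their direction was fixed by the filter. Liver stroma against peritoneal stroma gave 3 genes higher and 1 lower of 10 tested (33.4% of all genes, 14.9% higher and 18.5% lower), and liver against peritoneal tumour cells gave 1 higher of 8 tested (3.2% of all genes, 1.33% higher). In culture, RasHIGH against BMEL WT gave 4 higher of 7 tested (5 by DESeq2), against 22.6% of all genes called and 10.9% called higher. RasLOW against BMEL WT gave 0 of 7 by edgeR (5.96% of all genes), with 3 at an unadjusted p under 0.05 and 1 called by DESeq2. RasHIGH against RasLOW also gave 0 of 7 by edgeR (0.0752% of all genes), with 2 at an unadjusted p under 0.05 and 1 called by DESeq2. Liver and peritoneal tumour cells were each higher than cultured RasHIGH cells in 5 of 8 genes, where 45.1 and 37.9% of all genes were called, 23 and 19.3% as higher. At both sites the 5 include Kdr, which had 0 counts in every RasHIGH library and entered the test through the tumour libraries alone. Growth in the animal, dissociation, sorting and lane all differed between tumour cells and these cultures and cannot be told apart. The comparisons above share libraries, so that their counts are not independent of each other. In bulk RNA of sorted fractions, fewer cells of a type and less RNA per cell cannot be told apart.

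**Figure D1:**
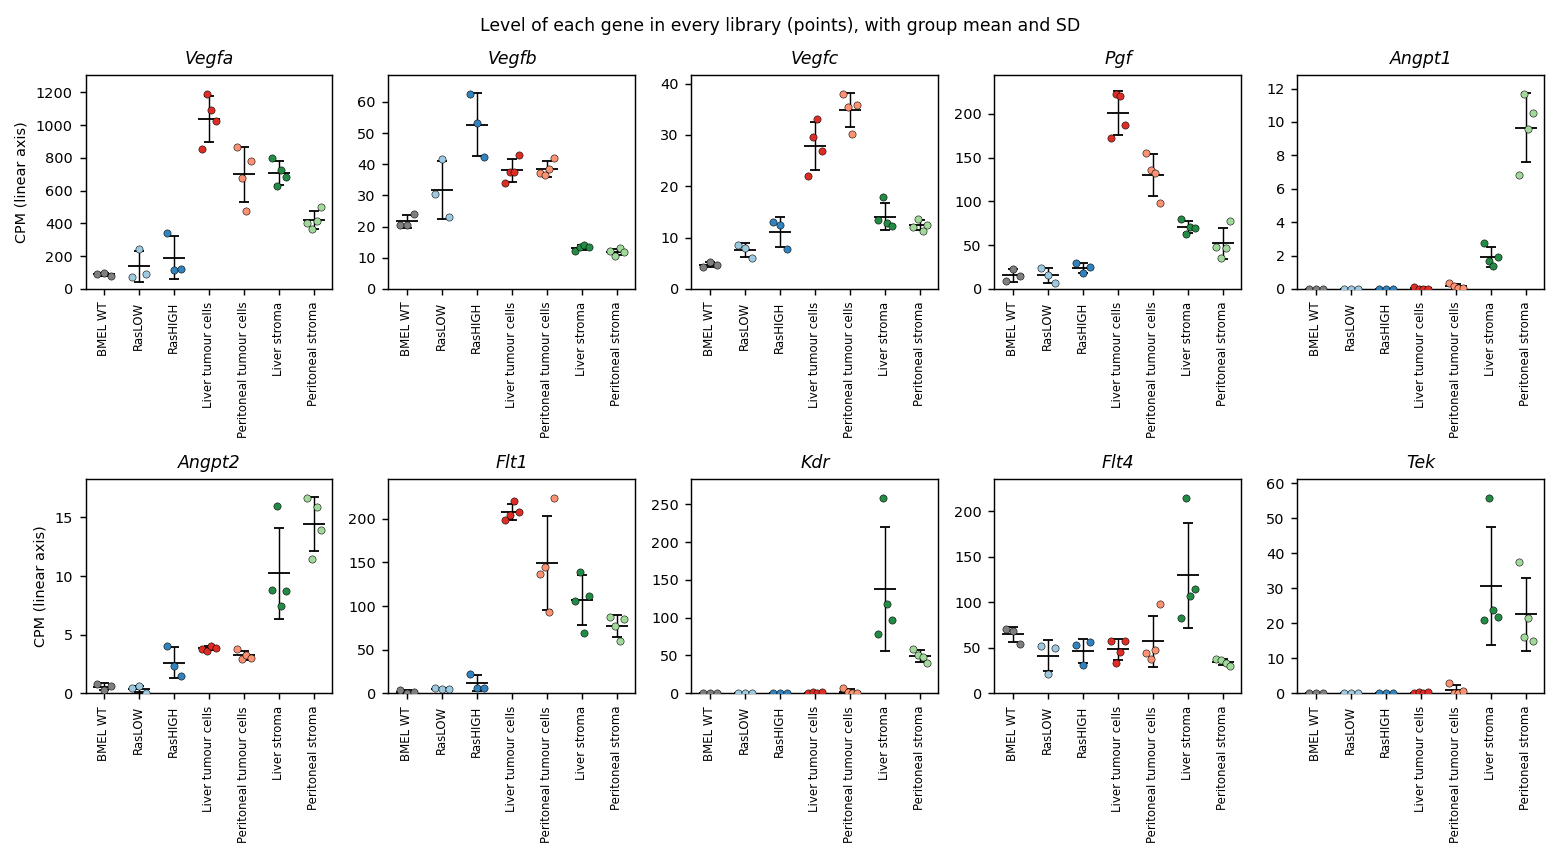
Level of each of the 10 genes in CPM (linear axes from 0) in every library of the 7 groups, with points for libraries and bars for the group mean and SD (n = 3 cultures or 4 mice). Flt1 and Pgf are high in both tumour cell groups, whereas Kdr and Tek are high in both stroma groups only, with mean Kdr at 138 CPM in liver stroma and 0.858 CPM in liver tumour cells.

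Vegfa (chr17:46153942-46169326 on mm9), the principal ligand of Kdr and Flt1, was the most abundant of the 4 VEGF ligands in the tumours, at 856, 1190.0, 1091 and 1022 CPM in liver tumour cells of mice 1 to 4. The liver stroma of the same mice had 799, 626, 728 and 684 CPM. Every liver tumour library lay above every liver stroma library, and the difference was 1.39-fold (log2 0.48 ± 0.13, SE; adjusted p = 0.00559). Peritoneal tumour cells had 868, 675, 474 and 781 CPM and peritoneal stroma 405, 364, 415 and 498 CPM. The highest stroma and the lowest tumour library crossed in the peritoneum, with a 1.54-fold difference (log2 0.62 ± 0.19; adjusted p = 0.0145) that did not pass without the tumour cells of mouse 1 (adjusted p = 0.0556), without those of mouse 4 (0.0654) or under the RLE scaling (0.0511). Between sites, Vegfa was 1.56-fold higher in liver than in peritoneal stroma with no overlap of libraries (log2 0.64 ± 0.13; adjusted p = 0.0039). The tumour cells showed a like value of 1.54-fold that missed the threshold (log2 0.62 ± 0.18; adjusted p = 0.0861) and passed without mouse 1 of the peritoneal tumours (adjusted p = 0.0251) and by DESeq2 (0.00781). The test of the difference between the site effects gave log2 -0.09 ± 0.24 (adjusted p = 0.832).

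In culture Vegfa was lower than in any tumour fraction, at 92.8, 99.2 and 81.4 CPM in BMEL WT, 73.6, 246 and 93.4 CPM in RasLOW and 341, 113 and 119.5 CPM in RasHIGH cells. Culture 2 of RasLOW and culture 1 of RasHIGH stood above the other Ras cultures, which were near BMEL WT. RasHIGH against BMEL WT was 2.1-fold without reaching the threshold (adjusted p = 0.112), although the libraries did not overlap, and it passed by DESeq2 (0.0346) and with all 25 libraries in 1 fit (0.0259). The summed CPM of 12 hypoxia-response genes was 2236 in that RasLOW culture, the lowest of its group, and 3597 in that RasHIGH culture, between the others of its group. The part of these genes in the Vegfa levels was not tested. Liver tumour cells had 5.82-fold more Vegfa than RasHIGH cultures (log2 2.54 ± 0.40; adjusted p = 0.00116) and peritoneal tumour cells 3.79-fold more (log2 1.92 ± 0.43; adjusted p = 0.0101).

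Pgf (chr12:86507589-86518246), which encodes placental growth factor, a ligand of Flt1 that does not bind Kdr, differed most among the VEGF ligands between RasHIGH cultures and tumour cells. It had 8.6, 23.1 and 14.9 CPM in BMEL WT, 23.6, 15.6 and 6.91 CPM in RasLOW and 29.5, 18.4 and 24.9 CPM in RasHIGH cultures. Liver tumour cells had 173, 222, 221 and 187 CPM and peritoneal tumour cells 156, 135, 132 and 97.6 CPM. The culture groups overlapped, and every tumour library was above every culture, by 8.87-fold over RasHIGH for the liver (log2 3.15 ± 0.20; adjusted p = 1.6e-05) and 5.57-fold for the peritoneum (log2 2.48 ± 0.22; adjusted p = 0.000277). The Ras cultures were sequenced in another lane than any tumour library. In lane 3, which held BMEL WT cultures 1 and 2 and both tumour cell libraries of mouse 4, Pgf was 8.6 and 23.1 CPM in the cultures against 187 and 97.6 CPM in the tumour cells.

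Pgf was also the 1 gene of the 10 that was called between liver and peritoneal tumour cells, 1.6-fold higher in the liver with no overlap of libraries (log2 0.68 ± 0.15; adjusted p = 0.0399). With the mouse as a block the adjusted p was 0.0780, and with 1 library left out it passed only when the liver or the peritoneal library of mouse 1 was left out, and not without any of the other 6 (0.0649 to 0.128). The stroma held less Pgf, with 79.3, 62.4, 71.1 and 69.1 CPM in liver and 47.9, 35.6, 46.3 and 77.9 CPM in peritoneum. Tumour cells were 2.7-fold above stroma in the liver (log2 1.43 ± 0.13; adjusted p = 6.48e-07) and 2.32-fold in the peritoneum (log2 1.21 ± 0.25; adjusted p = 0.00187), without overlap at either site.

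Vegfb (chr19:7056963-7062141), a Flt1 ligand linked to fatty acid uptake and cell survival, was higher in RasHIGH than in BMEL WT cultures and was not called between RasHIGH cultures and tumour cells. BMEL WT cultures had 20.4 to 24.2 CPM, RasLOW cultures 23.0 to 41.6 CPM and RasHIGH cultures 42.4 to 62.6 CPM. RasHIGH was 2.45-fold above BMEL WT with no overlap (log2 1.29 ± 0.17; adjusted p = 0.00302). The third BMEL WT culture, the only one sequenced in the lane of the RasHIGH cultures, had 24.2 CPM and lay below all of them. Liver tumour cells at 34.1 to 43.0 CPM and peritoneal tumour cells at 36.4 to 42.2 CPM had lower means than RasHIGH without passing (adjusted p = 0.077 and 0.0634), and both passed as lower without culture 3 of RasHIGH (0.0221 and 0.0217). Stroma had the lowest level, 10.6 to 14.2 CPM at both sites together, and tumour cells exceeded it 2.72-fold in liver and 3-fold in peritoneum (adjusted p = 1.24e-07 and 2.75e-06).

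Vegfc (chr8:55162886-55271808), the ligand of Flt4 in lymphatic growth, was higher in RasHIGH than in BMEL WT cultures and higher again in tumour cells. BMEL WT had 4.37 to 5.18 CPM, RasLOW 6.09 to 8.65 CPM and RasHIGH 7.69 to 13 CPM, and the BMEL WT libraries lay below all of the Ras libraries. Only RasHIGH passed (2.35-fold, log2 1.23 ± 0.25; adjusted p = 0.0141), while RasLOW gave 1.6-fold (adjusted p = 0.166), and the difference between RasHIGH and RasLOW had an adjusted p of 0.625. Leaving out culture 1 or 3 of BMEL WT, or culture 2 of RasHIGH, gave an adjusted p of 0.0520, 0.0581 and 0.0524. Tumour cells were 2.7-fold above RasHIGH in liver (adjusted p = 0.00154) and 3.26-fold in peritoneum (adjusted p = 0.000935). They had 22.0 to 33.2 CPM in liver and 30.1 to 38.0 CPM in peritoneum, against 12.2 to 18 and 11.3 to 13.7 CPM in the matching stroma. They exceeded stroma 1.89-fold in liver (adjusted p = 0.000208) and 2.6-fold in peritoneum (adjusted p = 4.92e-06), and Vegfc was not called between sites in either compartment (adjusted p = 0.324 in tumour cells and 0.754 in stroma).

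Flt1 (chr5:148373180-148537587), a receptor usually read as endothelial, was higher in sorted tumour cells than in stroma. Liver tumour cells of mice 1 to 4 had 198, 204, 220.1 and 207 CPM, and their stroma had 106, 139, 69.6 and 111 CPM. Peritoneal tumour cells had 136, 145, 93.4 and 223 CPM, and peritoneal stroma 87.9, 76.7, 59.9 and 84.7 CPM. All tumour libraries exceeded all stroma libraries of their site, 1.86-fold in liver (log2 0.90 ± 0.16; adjusted p = 0.00028) and 1.79-fold in peritoneum (log2 0.84 ± 0.25; adjusted p = 0.0124). Per mouse the tumour cells held 147 to 316% of the stromal Flt1 level in liver and 155 to 264% in peritoneum, in libraries where the 10 endothelial markers other than Cdh5 reached at most 3.81 and 16.3%. Cdh5 stood at 38.1 to 181% in liver and 45.6 to 240% in peritoneum. It was also found in RasHIGH cultures, at 8.97 ± 2.51 CPM against 0.0802 ± 0.0832 CPM in BMEL WT (SD, n = 3 each). In the peritoneal tumour cells of mouse 1 Flt1 stood at 155% of stroma and in the other 3 mice at 156, 189 and 264%. The summed epithelial markers, among which Epcam went the other way, stood in stroma at 13.9 to 15.7% of the tumour level in liver. In peritoneal stroma they stood at 6.38 to 10.4%, and their part in stromal Flt1 was not tested.

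Flt1 had its lowest level in BMEL WT cultures, a higher one in RasHIGH and the highest in tumour cells. BMEL WT cultures had 3.52, 0.819 and 1.41 CPM, RasLOW 6.24, 5.00 and 4.59 CPM, and RasHIGH 22.3, 6.3 and 5.81 CPM. Every Ras culture lay above every BMEL WT culture, and RasHIGH and RasLOW overlapped, with culture 1 of RasHIGH far above the rest. RasHIGH was 5.93-fold above BMEL WT (log2 2.57 ± 0.72; adjusted p = 0.0428), which did not pass without culture 1 of RasHIGH (3.19-fold; adjusted p = 0.0594), culture 2 of RasHIGH (0.0606), culture 2 of BMEL WT (0.124) or culture 3 of BMEL WT (0.134). RasLOW gave 2.75-fold (adjusted p = 0.172; DESeq2 0.0475). Against RasHIGH cultures, liver tumour cells had 19.2-fold more Flt1 (log2 4.27 ± 0.49; adjusted p = 0.000233) and peritoneal tumour cells 13.4-fold more (log2 3.74 ± 0.56; adjusted p = 0.00205), the largest changes with a fitted error among the 10 genes in those comparisons. Between sites Flt1 was not called in tumour cells (1.44-fold; adjusted p = 0.193) or in stroma (1.27-fold; adjusted p = 0.185), and it passed without peritoneal tumour cells of mouse 4 (0.0336) or liver stroma of mouse 3 (0.0260).

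Kdr (chr5:76328852-76374483), the main signalling receptor for Vegfa, showed the opposite compartment. Liver stroma of mice 1 to 4 had 78.3, 258, 118 and 96.8 CPM, against 0.575, 1.24, 0.589 and 1.03 CPM in liver tumour cells. Peritoneal stroma had 59.0, 50.6, 48.5 and 40.2 CPM, against 6.6, 1.27, 0.703 and 0.604 CPM in peritoneal tumour cells. Tumour cells were below stroma in both tumours, at log2 -7.40 ± 0.43 in liver (adjusted p = 1.67e-08) and log2 -4.56 ± 0.74 in peritoneum (adjusted p = 0.000494). As a share of stroma, Kdr in tumour cells had a median of 0.616% in liver and 2.01% in peritoneum, within the range of the endothelial markers, and the 11.2% of peritoneal mouse 1 lay within the range of those markers in that library too. Without that library the peritoneal difference was log2 -6.04.

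In culture Kdr had 2, 2 and 0 counts in BMEL WT and 0 counts in all 6 Ras libraries, which allows up to 0.0381 CPM over RasLOW and 0.0439 CPM over RasHIGH for counting error alone. Tumour cell libraries were at least 19.6-fold higher than RasHIGH in liver and at least 52.3-fold in peritoneum, against 3 counts over the RasHIGH group, and 207 of the 304 peritoneal counts came from mouse 1. Without mouse 1 the peritoneal bound was also at least 19.6-fold. Kdr passed the filter here through the tumour libraries alone, so the direction of these bounds was fixed. As a share of stroma, Kdr in those libraries lay within the range of the endothelial markers. Whether tumour cells or other sorted cells carried it was not tested. Kdr was 2.54-fold higher in liver than in peritoneal stroma with no overlap (log2 1.34 ± 0.32; adjusted p = 0.00958). Stroma of liver mouse 2, at 258 CPM, was the highest in Kdr, Flt4 and Tek alike, and its summed 7 sinusoidal endothelial markers (919 CPM) were also above the other liver stroma libraries (316 to 435 CPM). Those sums were 63.0 to 215 CPM in peritoneal stroma, and 5 of the 7 markers were higher and 1 lower in liver stroma, among them Stab2 (log2 7.10). Of all genes, 14.9% were called higher and 18.5% lower there. The part of these markers in the Kdr difference was not tested.

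Flt4 (chr11:49422765-49466241), known from lymphatic endothelium and sinusoids, was the VEGF receptor with the highest level per length in BMEL WT cells. It had 70.7, 68.7 and 54.7 CPM in BMEL WT, 52.2, 21.6 and 50.2 CPM in RasLOW and 52.8, 31.3 and 56.1 CPM in RasHIGH cultures. RasLOW lay below BMEL WT without overlap and RasHIGH overlapped it, and neither difference passed (adjusted p = 0.349 and 0.209). Tumour cells had 57.8, 33.2, 45.5 and 57.6 CPM in liver and 43.8, 38.1, 47.8 and 98.5 CPM in peritoneum, where mouse 4 stood out. Neither tumour group was called against RasHIGH (adjusted p = 0.635 and 0.469).

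In stroma, Flt4 differed between sites more than in tumour cells. Liver stroma had 82.3, 214, 107 and 115 CPM and peritoneal stroma 37.4, 36.9, 33.2 and 29.7 CPM. Liver stroma exceeded peritoneal stroma 3.46-fold with no overlap (log2 1.79 ± 0.25; adjusted p = 0.000475), whereas tumour cells gave 1.14-fold lower in liver (adjusted p = 0.763). Tumour cells were below stroma in the liver, at log2 -1.48 ± 0.26 (adjusted p = 0.000215), and above every stroma library in the peritoneum without passing (1.54-fold; adjusted p = 0.0748). The peritoneal value was log2 0.17 without tumour cells of mouse 4, and it passed without those of mouse 2 (log2 0.71; adjusted p = 0.0385). The site effect in tumour cells minus that in stroma was log2 -2.05 ± 0.43 (adjusted p = 0.00491), with an adjusted p of 0.00357 to 0.0135 when any 1 library was left out. For Kdr the same test gave log2 -2.78 ± 0.85 (adjusted p = 0.0408), which became -1.30 (adjusted p = 0.159) without peritoneal tumour cells of mouse 1 and had an adjusted p of 0.0544 with the mouse as a block. Leaving out 1 of the 16 libraries ended this call in 12 cases. These were 2 of the 10 genes, against 14.3% of all genes called and 7.5% called in that direction.

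**Figure D2:**
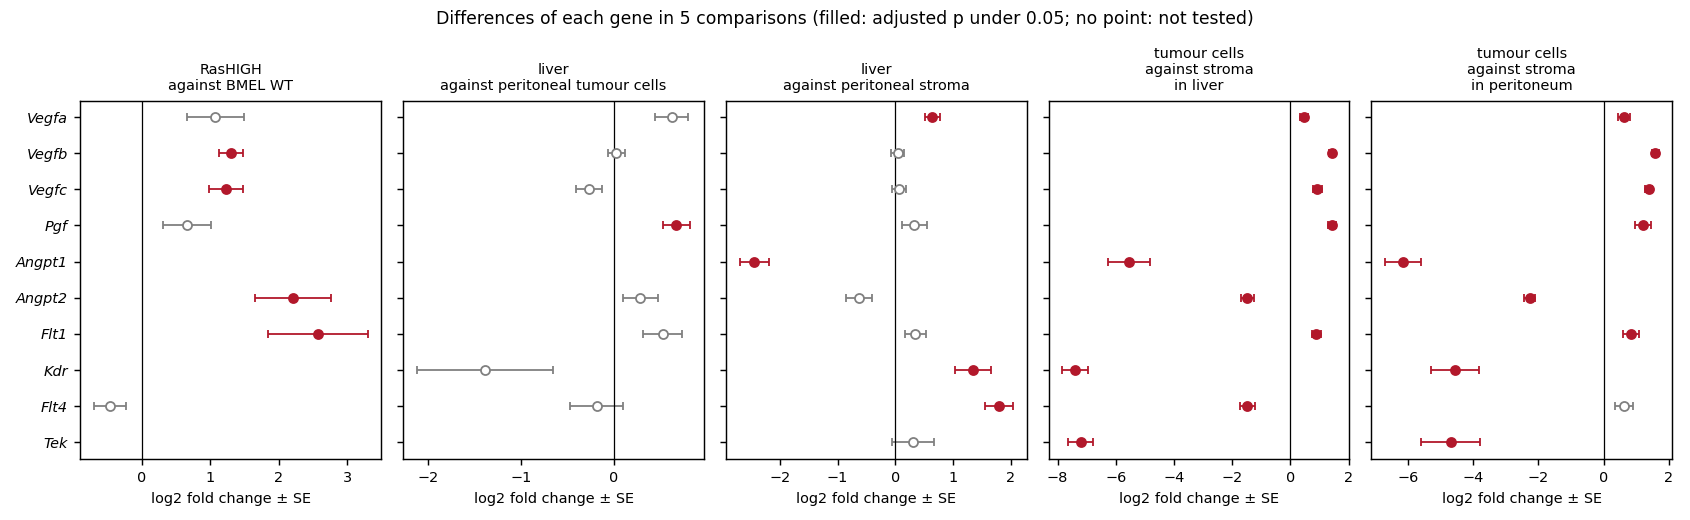
Log2 fold change (x axis, ± SE) of each of the 10 genes in 5 comparisons, with filled points for an adjusted p under 0.05 and no point where the counts were too low to test. In both tumour against stroma panels the 4 VEGF ligands and Flt1 lie above 0 and Kdr, Tek and both angiopoietins below 0, and Flt4 lies at -1.48 in liver and 0.62 in peritoneum.

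Because transcripts differ in length, the make-up of the receptors was compared per kilobase of exon (RPKM). BMEL WT cells had almost only Flt4, at 97.9 ± 1.31% of the summed RPKM of the 3 VEGF receptors, and RasHIGH cells 85.8 ± 8.23% (SD, n = 3). In liver tumour cells Flt1 made up 75.0 ± 4.78%, Flt4 24.5 ± 4.91% and Kdr 0.500 ± 0.218% (n = 4). Peritoneal tumour cells had 64.2 ± 6.18% Flt1 and 1.75 ± 2.21% Kdr. In liver stroma the order was Kdr at 41.6 ± 6.47%, Flt4 at 35.9 ± 1.92% and Flt1 at 22.5 ± 6.95%, and in peritoneal stroma Kdr at 38.5 ± 3.59%, Flt1 at 37.8 ± 4.93% and Flt4 at 23.7 ± 1.71%, so that Kdr and Flt1 did not differ beyond their spread there. The share of Flt1 was 52.5 percentage points higher in tumour cells than stroma in the liver and 26.4 in the peritoneum. Among the ligands, Vegfa made up 59.4 ± 1.12% of summed ligand RPKM in liver tumour cells and 73.2 ± 1.02% in liver stroma, and 56.1 ± 6.70% and 67.9 ± 2.29% at the peritoneal site. Pgf was the second ligand of the liver tumour cells, at 31.1 ± 1.12% against 19.7 ± 0.323% in their stroma. For the 4 differences in Flt1 and Vegfa share the libraries did not overlap, and all 4 mice had the same direction in each. Since tumour cells and stroma came from the same mice, a two-sided exact permutation test within mice gave p = 0.125 for each, the smallest value that 4 pairs allow, so that this design cannot pass 0.05. Regrouping the 8 libraries freely, which ignores the mice, gave p = 0.0286 by the exact test for each (0.0286 also after adjustment over 5 such tests, the smallest possible). These tests were chosen after the values were seen. With no overlap of libraries p could only be the smallest possible, and the adjustment could not change it.

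**Figure D3:**
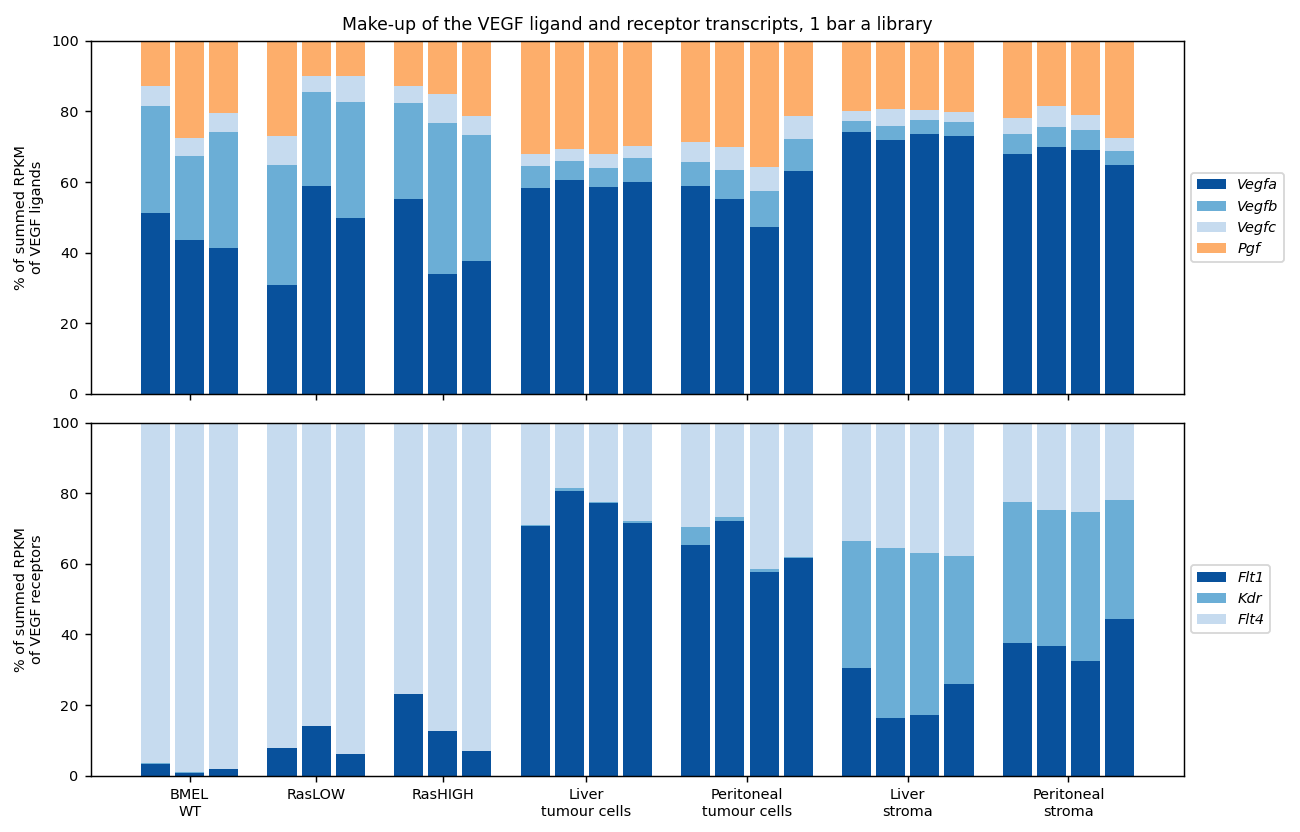
Stacked bars, 1 per library, of the share of each VEGF ligand (upper panel) and VEGF receptor (lower panel) in the summed RPKM of its family, in percent. Flt4 fills most of the receptor bar in cultured cells, Flt1 most of it in tumour cells (57.7 to 80.7%), and Kdr appears as a broad band in stroma (33.6 to 48.2%).

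**Figure D4:**
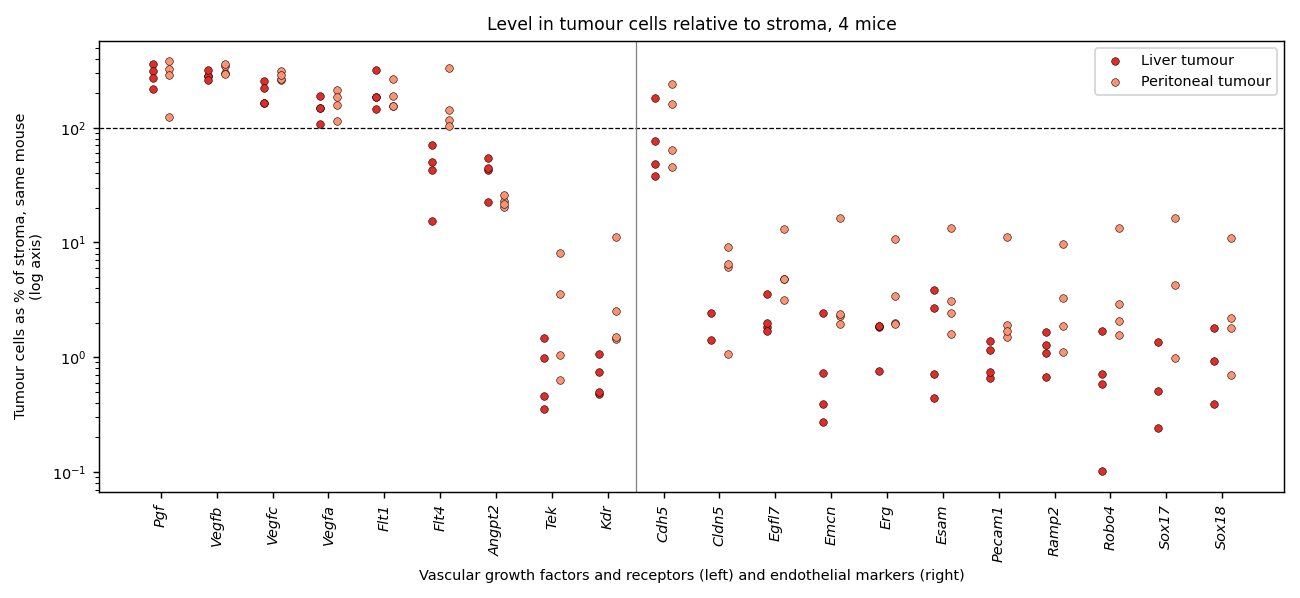
Level in tumour cells as a percentage of the stroma of the same mouse and site (log axis, 1 point per mouse, dashed line at the stromal level), for 9 of the genes on the left and 11 endothelial markers on the right; values of 0 cannot be drawn on this axis, and Angpt1, at 0 in 3 liver tumour libraries, is left out. The VEGF ligands and Flt1 lie above the stromal level in every mouse at both sites, and Kdr and Tek lie among the endothelial markers, most of which are under 10%.

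Angpt1 (chr15:42256273-42508523), the Tek agonist, was a stromal transcript with a clear difference between sites. Peritoneal stroma of mice 1 to 4 had 6.84, 11.7, 9.56 and 10.5 CPM, and liver stroma 2.73, 1.65, 1.37 and 1.89 CPM. The libraries did not overlap and liver stroma was 5.43-fold lower (log2 -2.44 ± 0.26; adjusted p = 8.95e-05). Tumour cells were near the limit of detection, with 6, 0, 0 and 0 counts in liver and 11, 6, 2 and 1 counts in peritoneum, and all 9 cultures had 0 counts. Both tumour groups were below their stroma (adjusted p = 1.63e-05 and 1.66e-05), and with so few counts no fold is given. Angpt1 entered both tests through the stroma libraries alone, so these p-values could only come out as lower in tumour cells. The summed CPM of 6 mural and stellate cell markers was 486 to 710.1 in peritoneal and 107 to 265 in liver stroma, and that of 5 fibroblast markers 47819 to 70848 and 3724 to 7565, and their part in the Angpt1 difference was not tested.

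Angpt2 (chr8:18690263-18741562), the context-dependent Tek ligand, was found in every group and was highest in stroma. Peritoneal stroma had 16.6, 11.4, 15.9 and 13.9 CPM and liver stroma 8.82, 16, 7.41 and 8.73 CPM, where mouse 2 overlapped the peritoneum. Liver stroma was 1.54-fold lower and just missed the threshold (log2 -0.63 ± 0.22; adjusted p = 0.0566), and it passed without mouse 2 of the liver stroma (0.0034), without mouse 2 of the peritoneal stroma (0.0433) and by DESeq2 (0.0280). Tumour cells had 3.75, 3.63, 4.07 and 3.9 CPM in liver and 3.79, 2.94, 3.26 and 3.02 CPM in peritoneum, 2.78-fold and 4.8-fold below their stroma without overlap (adjusted p = 5.83e-05 and 6.01e-06). These values in tumour cells amounted to 22.7 to 54.9% and 20.5 to 25.8% of the stroma of the same mouse, above the level of the 10 endothelial markers in the same libraries.

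Angpt2 was also the angiopoietin that differed with Ras in culture. BMEL WT cultures had 0.815, 0.261 and 0.623 CPM, RasLOW 0.425, 0.588 and 0.0429 CPM, and RasHIGH 4.04, 2.33 and 1.44 CPM. RasHIGH lay above all other cultures, 4.6-fold over BMEL WT (log2 2.20 ± 0.55; adjusted p = 0.0285). Leaving out culture 2 or 3 of BMEL WT, or culture 2 of RasHIGH, gave an adjusted p of 0.0861, 0.0898 and 0.0687. Against RasLOW it was 7.26-fold (log2 2.86 ± 0.77), which did not pass edgeR's adjustment (adjusted p = 0.236) and passed that of DESeq2 (0.00501). Neither tumour cell group was called against RasHIGH (adjusted p = 0.134 and 0.452), and the liver group passed without culture 1 of RasHIGH (0.00459).

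The ratio of Angpt2 to Angpt1 per kilobase was 3.73 to 11.2 in liver stroma and 1.13 to 2.81 in peritoneal stroma. The libraries did not overlap, and the mean log2 ratio was 2.61 in liver and 0.802 in peritoneum (difference 1.81, higher in the liver in 4 of 4 mice). The two-sided exact permutation test gave p = 0.125 within mice and p = 0.0286 with free regrouping of libraries, in each case the smallest possible. This test too was chosen after the values were seen, when the libraries were known not to overlap.

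**Figure D5:**
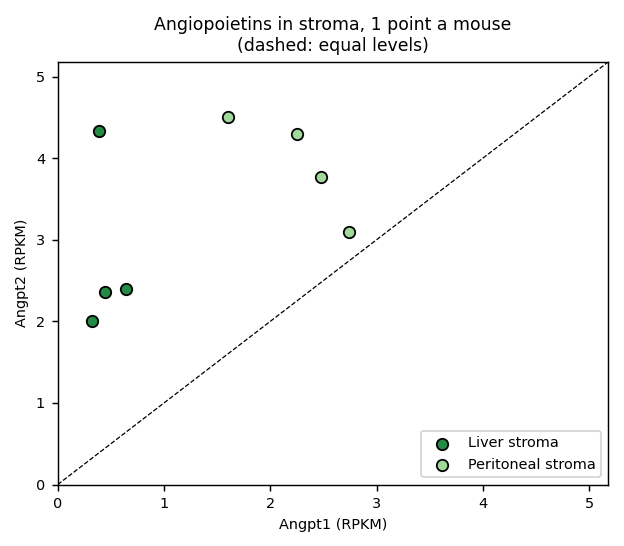
Angpt2 against Angpt1 in stroma, both in RPKM on linear axes, with 1 point per mouse and a dashed line of equal levels. All 8 points lie above the line, and the 4 liver points sit at low Angpt1 (0.321 to 0.641 RPKM), left of the 4 peritoneal points (1.61 to 2.74 RPKM).

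Tek (chr4:94405980-94541667), the angiopoietin receptor, followed Kdr. Liver stroma had 20.9, 55.7, 23.8 and 21.9 CPM and peritoneal stroma 37.6, 16.2, 21.5 and 14.9 CPM. The sites overlapped and were not called (1.24-fold; adjusted p = 0.56), and the sign turned without mouse 2 of the liver stroma (log2 -0.12). Tumour cells had 0.207, 0.253, 0.0842 and 0.322 CPM in liver and 3.06, 0.17, 0.137 and 0.528 CPM in peritoneum, all below the stroma (log2 -7.20 ± 0.43 and -4.69 ± 0.91, with adjusted p = 1.83e-08 and 0.00138). Tek too entered these tests through the stroma libraries alone. Cultured cells had 2, 2 and 0 counts in BMEL WT and 0 in all Ras libraries, and 96 of the 123 counts in peritoneal tumour cells came from mouse 1. Without that library the peritoneal difference was log2 -6.68.

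The other VEGF and angiopoietin pathway genes, 15 in all, are given by count. Between liver tumour cells and stroma, 3 of 14 tested were higher and 8 lower, with a median log2 difference of -1.81 against 0.0036 over all genes tested. Of all genes, 77.8% were called there, 38.4% as higher and 39.4% as lower. The 5 largest were lower in tumour cells: Esm1, a marker of vessel tips (log2 -5.86), Nos3, endothelial nitric oxide synthase (-5.48), the orphan receptor Tie1 (-5.08), the adaptor Dok2 (-4.74) and the VEGF co-receptor Nrp1 (-4.24). The 3 that were higher, named after their values were seen, were the Notch ligand Dll4 (log2 2.20 ± 0.16), Ccbe1, a factor needed to process Vegfc (2.06 ± 0.45), and Plcg1, an effector of VEGF receptors (1.48 ± 0.09). In the peritoneum 4 of 15 were higher and 10 lower (median -3.56 against 0.07), where 39.5% of all genes were called higher and 37.1% lower. Lower were, among others, Esm1 (-4.50), Aplnr (-4.13), Tie1 (-4.04), Dok2 (-4.04) and Angpt4, a further angiopoietin, for which no fold is given because peritoneal tumour cells had 0, 1, 0 and 0 counts against 78, 108, 103 and 63 in the stroma. Above the stroma there, by median share, were Dll4 (570%), Ptprb (318%), Plcg1 (252%), Plxnd1 (197%) and Ccbe1 (110%, with mice on both sides of the stroma). Flt1 stood at 172% by the same measure. Dll4 had 151 to 227 CPM in liver tumour cells, 29.2 to 46.0 CPM in their stroma and 0.991 to 2.55 CPM in RasHIGH cultures.

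RasHIGH against BMEL WT gave 2 higher and 3 lower of 10 tested: Dll4 (log2 3.99), Plxnd1, a semaphorin receptor (2.47), Ccbe1 (-3.43), Nrp1 (-2.76) and Ptprb, the phosphatase that acts on Tek (-1.10). Of all genes, 10.9% were called higher and 11.7% lower in this comparison. For Nrp1 the mean was 174 ± 17.2 CPM in BMEL WT and 25.3 ± 12.97 CPM in RasHIGH cultures (SD, n = 3), and it stood at 4.74 ± 0.948 CPM in liver tumour cells (n = 4). RasLOW against BMEL WT gave 1 higher and 1 lower of 9 tested, and RasHIGH against RasLOW 0 of 10 by edgeR (5.96 and 0.0752% of all genes called). Against RasHIGH cultures, liver tumour cells were higher in 9 and lower in 1 of 12, and peritoneal tumour cells higher in 8 and lower in 0 of 13. Of all genes, 23 and 19.3% were called higher there, and 22.1 and 18.6% lower. Liver stroma against peritoneal stroma gave 2 higher and 7 lower of 15 (14.9% higher and 18.5% lower over all genes). Among these were the VEGF receptor ligand Vegfd (-4.68), the apelin receptor Aplnr (-3.78), its ligand Apln (-1.93), Ptprb (1.51) and Angpt4, with 2, 6, 0 and 1 counts in liver stroma and no fold given. In tumour cells only Apln was called between sites, of 13 tested (log2 0.95 ± 0.21; adjusted p = 0.037), against 3.2% of all genes called.

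The 12 hypoxia-response genes had summed levels of 1678 to 2206 CPM for BMEL WT, 2983 to 4210 CPM for RasHIGH cultures, 7865 to 10781 CPM in liver tumour cells and 7335 to 9126 CPM in peritoneal tumour cells. All 11 tested were higher in liver tumour cells than in RasHIGH cultures and 10 of 11 in peritoneal tumour cells (23 and 19.3% of all genes called higher). In RasHIGH against BMEL WT 7 of 11 were higher (10.9% of all genes). RasLOW cultures had 2236 to 3810 CPM, liver stroma 3891 to 4634 CPM and peritoneal stroma 2493 to 3456 CPM. The range of peritoneal stroma overlapped that of RasHIGH cultures. In Vegfa, Pgf and Flt1 every peritoneal stroma library was above every RasHIGH culture, though stroma is a mix of other cell types. The part of the hypoxia-response genes in any difference between cultures, tumour cells and stroma was not tested.

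The genes most alike in pattern were found by Pearson's r of log2(CPM + 1) over all 25 libraries, which fall into cultures, tumour cells and stroma, so that r mostly reflects these groups. Flt1 was nearest to Apobr (r = 0.973), P4ha1 (0.970) and Bnip3 (0.966), of which the last 2 were in the hypoxia-response list. Vegfa was nearest to Mxi1 (0.971), Mtss1 (0.967) and Kmt2e (0.967). Kdr was nearest to Robo4, Gimap6 and Adgrl4 (r = 0.996, 0.996 and 0.995) and Tek to Ramp2, Erg and Adcy4 (0.999, 0.997 and 0.996). For Angpt1 they were Cacna1c, Nfasc and Nfatc4 (r = 0.995, 0.994 and 0.994), for Angpt2 Ace, Rgl1 and Grn (0.955, 0.955 and 0.954), for Pgf Appl2, Slc14a1 and Siglec15 (0.951 to 0.959), for Vegfb Mgat4b, Rpl28 and Tmem158 (0.972 to 0.979) and for Vegfc Efna1, Kcnn4 and Man1a (0.951 to 0.966). Flt4 had no close companion, with Slc24a5 (0.780), F8 (0.778) and Sirt7 (0.758) nearest. Among the 10 genes themselves r was 0.990 for Kdr with Tek, 0.952 for Flt1 with Vegfa, 0.896 for Flt1 with Pgf and 0.480 for Flt1 with Kdr.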

How the data were processed

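mRNA libraries (NuGEN Universal Plus mRNAseq) were sequenced on an Illumina HiSeq. The authors aligned reads to the mm9 mouse genome with TopHat2, per their methods, whereas their processing notes list mm8, mm10, FastQC and Bowtie 0.12.2. They deposited raw counts of reads per gene with no normalization. The read counter, its strand setting and its annotation are not given in the sources used here. Tests used edgeR 4.0.16 under R 4.3.3 (filterByExpr with a minimum count of 10, TMM, quasi-likelihood F-test), using only the libraries of the 2 groups compared, or all 16 tumour and stroma libraries for the difference between site effects. A gene was called at a Benjamini-Hochberg adjusted p under 0.05 over all genes tested. SEs were the unshrunk log2 fold change divided by the square root of F. The fit was tested on simulated counts. CPM used library totals. RPKM used the union of exons of GENCODE vM1 (mm9), which also gave positions. Intervals and detection limits cover counting error only. The 10 genes were described in full, and of the 15 pathway genes at most the 5 called ones with the largest change, with exceptions named. The members and lists were chosen with earlier results of these data known.

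Alternatives were DESeq2 1.42.0, RLE scaling, no filter, the study's thresholds (absolute log2 fold change over 1.5 with p under 0.01 in cell lines, over 1 with p under 0.05 elsewhere), all 25 libraries in 1 fit, the replicate number as a block, and leaving out each library. Liver and peritoneal samples share mice by their labels, so mice pair them (mean correlation of deviations 0.177 between stroma, -0.048 between tumour cells, 0.221 and 0.191 between compartments). The labels tie cultures of the same number to nothing shared.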

Additional observations from a re-analysis of the deposited data

Results flagged for a closer look

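Within groups of 4 libraries, the highest or lowest library was compared with its neighbour, and its gap was divided by the range of the group (Dixon's ratio, tested at the 95% level). Of 40 groups of the 10 genes, 6 were above the critical value, where chance alone gives about 1 in 20. In peritoneal tumour cells, mouse 1 stood apart in Kdr (ratio 0.888) and Tek (0.866), and mouse 4 in Flt4 (0.839). In liver stroma, mouse 2 stood apart in Tek (0.917) and Angpt2 (0.836). Angpt1 in liver tumour cells gave a ratio of 1, from 6 counts in mouse 1 and 0 in the other mice.

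The site effect in tumour cells differed from that in stroma, by edgeR's test of the difference itself, for Kdr (log2 -2.78; adjusted p = 0.0408) and Flt4 (log2 -2.05; adjusted p = 0.00491).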

How the results depend on the processing

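Of 1196 alternative values of 85 log2 fold changes, 1093 kept their direction and their side of the threshold, 49 lost the call, 30 gained it and 24 changed sign. The number of the 10 genes called in RasLOW against BMEL WT (0) became 1 by DESeq2 and 3 with all 25 libraries in 1 fit. RasHIGH against BMEL WT (4) gave 2 under the study's thresholds and 1 to 4 without 1 library, with 1 left without culture 3 of BMEL WT or culture 2 of RasHIGH. RasHIGH against RasLOW (0) gave 1 under the study's thresholds, 1 by DESeq2 and 2 with all libraries. Liver against peritoneal tumour cells (1) gave 0 under the study's thresholds, with all libraries or with the replicate block, 2 by DESeq2 and 0 to 2 without 1 library. Liver against peritoneal stroma (4) gave 2 with all libraries. Peritoneal tumour cells against RasHIGH (5) gave 8 with all libraries. The difference between site effects (2) gave 1 without the filter, 1 with the replicate block and 1 to 2 without 1 library. The cause was not tested.

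Over all genes, RasLOW against BMEL WT (734 called) gave 1632 by DESeq2, 2440 with all libraries, 295 with the replicate block and 148 to 2340 without 1 library. RasHIGH against BMEL WT (2789) gave 1190 under the study's thresholds and 4347 with all libraries. RasHIGH against RasLOW (9) gave 253 under the study's thresholds, 414 by DESeq2, 77 without the filter, 917 with all libraries, 0 with the replicate block and 0 to 16 without 1 library. Liver against peritoneal tumour cells (419) gave 1239 by DESeq2, 102 with the replicate block and 41 to 884 without 1 library. Under the study's thresholds, which ask for a larger change, stroma between sites gave 2107 of 4926, tumour against stroma 6437 of 11376 in liver and 6377 of 11168 in peritoneum, and liver and peritoneal tumour cells against RasHIGH 3050 of 5851 and 2571 of 4846. The difference between site effects (2191) gave 1180 with all libraries.

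Pgf in RasLOW against BMEL WT (log2 0.01) turned to -0.089 with the replicate block. Without 1 library, values that changed sign ran from -0.090 to 0.87 (Vegfa) and -0.48 to 0.42 (Pgf) in RasLOW against BMEL WT, -0.20 to 1.17 (Vegfa) and -0.16 to 0.40 (Flt4) in RasHIGH against RasLOW, -0.038 to 0.088 (Vegfb), -1.70 to 0.047 (Kdr) and -0.35 to 0.20 (Flt4) between tumour sites, and -0.028 to 0.085 (Vegfb), -0.052 to 0.12 (Vegfc) and -0.12 to 0.63 (Tek) between stroma sites. They ran from -0.069 to 0.31 and -0.024 to 0.53 for Flt4 in liver and peritoneal tumour cells against RasHIGH, and from -0.24 to 0.13 (Vegfa), -0.15 to 0.045 (Vegfb), -0.062 to 0.37 (Flt1) and -2.84 to 1.57 (Angpt1) for the difference between site effects.

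Scaling CPM by TMM moved mean Vegfb and Vegfc of peritoneal stroma by more than their SD (13.2 and 13.7 CPM). Replicate numbers of cultures share no stated origin, and deviations of same-numbered cultures had mean correlations of -0.119, 0.059 and -0.303. Depth limits Kdr, Tek and Angpt1 in cultures, with 0 to 2 counts a library, and Angpt1 in tumour cells, with 0 to 11. Both kinds of exact test of shares and of the Angpt2 to Angpt1 ratio, and the Kdr bound without mouse 1, were chosen after seeing the data.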
